A study of Mus musculus with 12 samples.

Results

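A set of 9 genes of the complement system, an innate immune cascade of secreted proteins, were followed in mouse retinal explants at 2 glucose concentrations. The genes were those whose Ensembl identifiers carry the symbols C1qa, C1qb, C1qc, C1ra, C1s1, C3, C4b, Cfb and Serping1. All 9 were found among the 53707 genes of the deposited table, and all 9 were among the 21061 genes with enough counts to be tested. Retinas of wild-type C57BL/6J mice at P28 were freed of sclera and retinal pigment epithelium and kept for 48 hours in Neurobasal-A medium with B27 and N2 supplements. The medium held either 5 mM or 25 mM glucose, and RNA-seq was performed on 3 biological replicates per concentration. Each biological replicate was given as 2 technical replicates, 12 libraries in all, the first in batch 1 and the second in batch 2. An explant has no blood circulation, so the RNA measured is that of the cells left in the isolated retina.

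In the classical pathway, C1q binds a tagged surface and carries the proteases C1r and C1s, of which C1s then cleaves C4 and C2. That step leads to cleavage of C3. Fragments of C3 mark the surface for phagocytes, and factor B, the product of Cfb, amplifies the reaction through the alternative pathway. In the retina C1q is known as a product of microglia, the resident macrophages, and complement takes part in synapse removal and in the response to injury.

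All 9 genes had a lower fitted level at 25 mM than at 5 mM glucose, and none passed the test at a false discovery rate (FDR) under 0.05. C1qa, C1qb and C1qc, the chains of C1q, and Cfb were 2.14 to 2.53 times as high at 5 mM by their means, C4b 1.83 times and C1ra 1.52 times. C3, Serping1 and C1s1 differed less, with means 1.20 to 1.28 times as high at 5 mM. The median log2 fold change (25 mM minus 5 mM) of the 9 genes was -0.87, against -0.0095 over all genes tested. In the edgeR quasi-likelihood fit, with p-values adjusted by Benjamini-Hochberg, 0 of the 9 had an FDR under 0.05, where 1.98% of all genes tested did (0.513% lower and 1.47% higher). At an FDR under 0.01 with a fold change over 2 the count was also 0 of 9, against 0.0% of all genes. The lowest FDR of any gene was 0.0217, so no gene could be called at that level. The paper reports genes past these thresholds for the same comparison, and its calls were not reproduced by this fit. At an unadjusted p under 0.05 the count was 4 of 9, all lower (C1qa, C1qb, C1qc and Cfb), where 15.5% of all genes were lower at that level. Other tools gave 2 members under an FDR of 0.05 (DESeq2, C1qa at 0.0370 and Cfb at 0.0330, where 9.54% of genes were lower) and 0 members (limma-voom, where 1.98% passed). With the 12 libraries as separate samples 1 member passed in edgeR (C1qa, FDR 0.0485), where 7.86% of genes were lower at that level. That fit treated technical replicates of the same biological replicate as independent, so its FDRs tend to be too low. A fitted value below 0 was found for 50.7% of all genes.

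**Figure D1:**
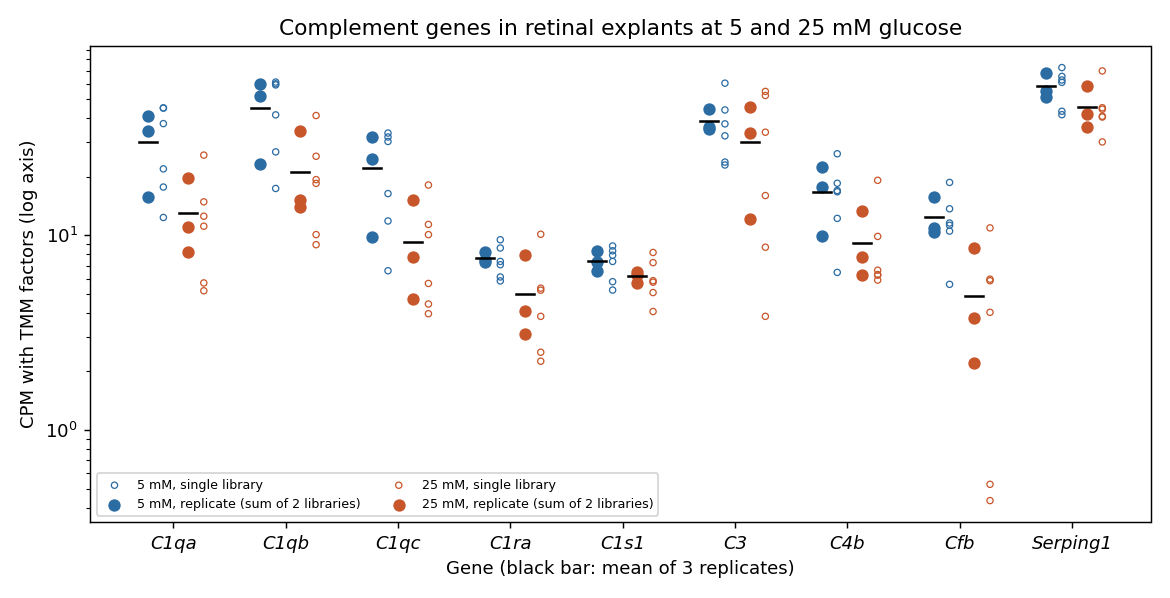
CPM (counts scaled to the library total with TMM factors, log axis) of the 9 complement genes at 5 mM (blue) and 25 mM (orange) glucose. Filled circles are biological replicates, open circles the single libraries, and black bars the means of 3 replicates. The filled circles of C1s1 and Cfb do not overlap between concentrations, and those of the other 7 genes do.

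Each library held 17998905 to 36692484 estimated counts in the 5 mM group, or 14815285 to 23129541 in the 25 mM group, and technical replicates were summed before testing. Rod RNA was abundant (10 rod markers summed to 3683 CPM or more in every replicate, CPM being counts scaled to the library total), and the 6 markers of the removed pigment epithelium summed to at most 4.36 CPM in any replicate. A pair of libraries stood farthest from the others of their concentration, the second technical replicate of 5 mM replicate 1 and the first of 25 mM replicate 2, at a root mean square log2 distance of 0.918 and 0.878 from the group median, against 0.538 to 0.836 for the other libraries. Without both, 0 of the 9 genes and 0.0096% of all genes had an FDR under 0.05, and their median log2 fold change was -0.94.

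On a scale that allows genes to be compared, TPM, which corrects for transcript length, C1qb was the highest of the 9 at 5 mM with a mean of 78.4 (SD 36.9, n = 3). It was followed by Serping1 at 63.2, C1qa at 55.6, C1qc at 34.9 and C3 at 18.9 TPM. Cfb at 11.5, C4b at 7.57, C1s1 at 6.12 and C1ra at 4.71 TPM formed the lower end. The replicate ranges of neighbours in this order overlapped except between C3 and Cfb and between C1s1 and C1ra. At 25 mM Serping1 stood first with a mean of 52.1 TPM (SD 15.2, n = 3), ahead of C1qb at 38.6, C1qa at 24.5, C1qc at 15.1 and C3 at 14.5 TPM. C1s1 at 5.11, Cfb at 4.78, C4b at 4.47 and C1ra at 3.32 TPM followed, and the only gap between neighbouring replicate ranges lay between C3 and C1s1.

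C1qa, C1qb and C1qc encode the A, B and C chains that assemble into the recognition molecule C1q. They lie side by side on the minus strand of chromosome 4 (GRCm38), C1qb (ENSMUSG00000036905) at chr4:136880129-136886187, C1qc (ENSMUSG00000036896) at chr4:136889804-136893065 and C1qa (ENSMUSG00000036887) at chr4:136895917-136898803, all protein-coding. Their transcripts are 64.2% to 65.3% identical over the aligned bases, and none overlaps an exon of another gene. The 250 bases upstream of the RefSeq start of C1qb (GRCm38.p6, chr4:136886201-136886450, minus strand) hold the letters GAGGAA, given in capitals. These letters are the core bound by the myeloid factor PU.1. No promoter was matched for C1qa, and a link of these letters to the proportions of the 3 chains was not tested.

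C1qb upstream: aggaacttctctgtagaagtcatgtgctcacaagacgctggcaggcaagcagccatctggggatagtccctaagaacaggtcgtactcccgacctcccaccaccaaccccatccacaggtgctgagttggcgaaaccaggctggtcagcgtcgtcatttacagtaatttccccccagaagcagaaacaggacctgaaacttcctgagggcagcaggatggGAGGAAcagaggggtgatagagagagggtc

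The match lies 30 to 25 bases before the start. GAGGAA or its reverse TTCCTC was searched on both strands of the 250 bases before each start and was found in 23.3% of all promoters. In C1qc the reverse letters lie 193 to 188 bases before the RefSeq start, upstream of the GENCODE gene too. RefSeq promoters were matched for 5 of the 9 genes, C1qb, C1qc, C1ra, C1s1 and C3, and the last 3 had no match to these letters. Of 3 further motifs searched the same way, the interferon-stimulated response element (GAAANNGAA, in 7.13% of all promoters) and the STAT site (TTCNNNGAA, 7.02%), whose letters can overlap, were in none of the 5. The kappaB consensus (7.25%) was found in C1qc alone, 41 to 32 bases before its RefSeq start, where the longer GENCODE gene already reaches.

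C1qa was at 15.7, 41.0 and 34.3 CPM in 5 mM replicates 1 to 3 and at 8.25, 11.0 and 19.8 CPM in the 25 mM replicates. The means were 30.3 ± 13.1 and 13.0 ± 6.04 CPM (SD, n = 3). C1qb stood at 23.2, 59.9 and 52.1 CPM with 5 mM glucose and at 14.003, 15.1 and 34.2 CPM with 25 mM. In both genes 5 mM replicate 1 was the lowest of its group and 25 mM replicate 3 the highest of its own, and these replicates made the groups overlap. C1qc repeated this order at a lower count, with 9.79, 31.9 and 24.7 CPM against 4.71, 7.77 and 15.1 CPM. The log2 fold changes were -1.22 (SE 0.43, 95% interval -2.19 to -0.24) for C1qa, -1.09 (SE 0.44, -2.11 to -0.08) for C1qb and -1.27 (SE 0.52, -2.46 to -0.07) for C1qc. The FDRs were 0.115, 0.151 and 0.156, at unadjusted p of 0.0203, 0.0370 and 0.0400 (edgeR). Without 5 mM replicate 1 the 3 chains had FDRs of 0.0201, 0.0297 and 0.0304 (edgeR), in a fit where 14.9% of all genes were lower at that level. Leaving out any other single replicate gave the chains FDRs of 0.0613 to 0.391 (edgeR).

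The 3 chains stayed in nearly the same proportion to each other. Of their summed TPM, C1qa made up 33.1% ± 0.926 at 5 mM and 31.9% ± 1.84 at 25 mM (SD, n = 3). C1qb made up 46.8% ± 1.43 and 49.1% ± 3.46, and C1qc 20.02% ± 2.01 and 19.0% ± 2.73. Two-sided exact permutation tests gave p of 0.4, 0.4 and 0.6 for the shares, where the smallest p that 3 against 3 replicates allow is 0.1. Over the 12 libraries the log2 CPM of the chains correlated pairwise at Pearson r of 0.975 to 0.982, a description over libraries that share replicates and depth.

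Because retinal C1q is known from microglia, the summed CPM of the 3 chains was set against that of 20 microglia markers. The microglia sum was 470, 635 and 587 CPM at 5 mM and 183, 298 and 380 CPM at 25 mM, so the groups did not overlap. Summed C1q was 48.7, 133 and 111 CPM against 27.0, 33.9 and 69.1 CPM. The log2 ratio of C1q to microglia markers was -2.64 ± 0.55 at 5 mM and -2.79 ± 0.34 at 25 mM (SD, n = 3), a difference of -0.14 with an exact two-sided permutation p of 0.7. The difference was 0.13 in batch 1 and -0.56 in batch 2, so its sign was not the same in both. Of the 20 markers, 18 had a log2 fold change below 0 with a median of -0.88, 11 were lower at an unadjusted p under 0.05 and 0 passed an FDR of 0.05 (edgeR; 8 by DESeq2). Ctss, which encodes the lysosomal protease cathepsin S, was at a mean of 110.1 CPM against 49.4 CPM. In bulk tissue, fewer cells of a type and less RNA per cell cannot be told apart.

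**Figure D2:**
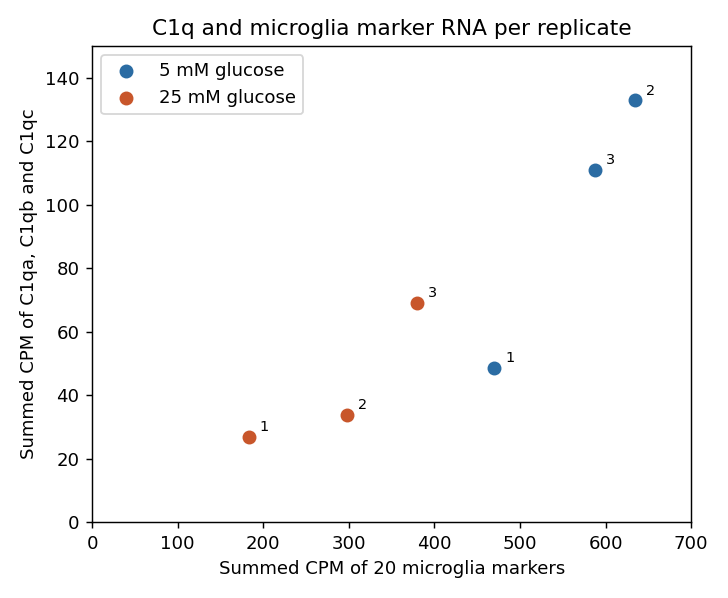
Summed CPM of C1qa, C1qb and C1qc (vertical axis) against the summed CPM of 20 microglia markers (horizontal axis) in each biological replicate, numbered by replicate, at 5 mM (blue) and 25 mM (orange) glucose. The microglia sums do not overlap between concentrations, while the C1q sum of 5 mM replicate 1 (48.7 CPM) lies below that of 25 mM replicate 3 (69.1 CPM).

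The genes whose log2 CPM most resembled the mean of the 3 chains over the 12 libraries, out of 12499 genes, were Tyrobp (r = 0.990), Sertad1 (0.985), Vamp8 (0.982), Fcgrt (0.981) and Tcirg1 (0.981). Tyrobp, a signalling adaptor of myeloid cells, is also among the 20 microglia markers.

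C1ra and C1s1 encode the proteases C1r and C1s, which C1q carries. C1ra (ENSMUSG00000055172, chr6:124512405-124523443, plus strand) was at 8.20, 7.45 and 7.25 CPM at 5 mM and at 3.11, 4.08 and 7.89 CPM at 25 mM. Its 5 mM replicates differed little, and 25 mM replicate 3 lay among them. The log2 fold change was -0.60 (SE 0.36, FDR 0.296 by edgeR). C1s1 (ENSMUSG00000038521, chr6:124530345-124542359, minus strand) was at 8.33, 7.29 and 6.55 CPM against 5.68, 6.49 and 6.29 CPM. These groups did not overlap, but the gap between 6.49 and 6.55 CPM was small, and its log2 fold change of -0.26 (SE 0.24) had an FDR of 0.472 (edgeR). It was -0.50 from transcript counts summed per gene and -0.13 without the first technical replicate of 25 mM replicate 2 (-0.18 without both libraries that stood apart). Groups that do not overlap, lower at 25 mM, were found for 2 of the 9 genes, C1s1 and Cfb, and for 15.8% of all genes tested. Exons of C1s1 overlap those of Gm16567 on the opposite strand over 576 bases, and Gm16567 had 0 CPM in every replicate.

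Both proteases have a near-identical neighbour. C1ra and C1rb transcripts were 98.0% identical over 2428 aligned bases, and 34.3% of the 101-base windows of C1ra, the length of a read, also occur unchanged in C1rb. For C1s1 and C1s2 the identity was 95.9% and the shared windows 7.70%. C1rb had 3 estimated counts in all libraries together, and C1s2 was at 0.688 ± 0.229 and 0.682 ± 0.082 CPM (SD, n = 3), so most counts of either pair were assigned to C1ra and C1s1. How the counting divided shared reads is not stated in the sources used here.

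C4b encodes C4, whose cleavage by C1s links the first step to C3 (ENSMUSG00000073418, chr17:34728380-34743882, minus strand). It was at 9.95, 22.3 and 17.7 CPM at 5 mM and at 7.72, 6.27 and 13.3 CPM at 25 mM. As with C1q, 5 mM replicate 1 was low and 25 mM replicate 3 high, and only these made the groups overlap. The log2 fold change was -0.87 (SE 0.38, 95% interval -1.75 to 0.0028) with an FDR of 0.175 (edgeR), and an FDR of 0.0387 without 5 mM replicate 1. Leaving out any other single replicate gave C4b an FDR of 0.0904 to 0.443 (edgeR). C4a, its neighbouring copy that GENCODE M21 lists as non-coding, was at 1.79 ± 1.15 and 2.65 ± 0.450 CPM (SD, n = 3), with a log2 fold change of 0.58 (SE 0.49, FDR 0.449 by edgeR). The copies are 96.1% identical, and 16.3% of the 101-base windows of C4b occur unchanged in C4a. The coding stretch of 60 bases within 1 exon where they differ most, at 13 positions, shows how reads could be told apart, with the differing bases in capitals (C4b exon 21 of 41, chr17:34735430-34735489, minus strand, GRCm38).

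C4b: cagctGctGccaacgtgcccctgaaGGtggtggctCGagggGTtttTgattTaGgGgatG
C4a: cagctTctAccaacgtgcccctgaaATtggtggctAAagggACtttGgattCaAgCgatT

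C3 encodes the protein on which the pathways converge (ENSMUSG00000024164, chr17:57203970-57228136, minus strand). It was at 36.1, 44.4 and 35.0 CPM at 5 mM and at 12.1, 33.4 and 45.4 CPM at 25 mM. Only 25 mM replicate 1 lay well below the 5 mM range, and replicate 3 lay above it. The log2 fold change of -0.34 (SE 0.41, 95% interval -1.29 to 0.60) had an FDR of 0.594 (edgeR), and it was 0.043 without 25 mM replicate 1. The summed value of 25 mM replicate 2 joined technical replicates at 3.84 and 52.3 CPM, a difference of 13.6-fold, and without the first of them the log2 fold change was -0.060 (-0.17 without both libraries that stood apart). Transcript counts summed per gene gave -0.76 for C3 (FDR 0.317 by edgeR), and the full-length transcript C3-201 held 97.5% ± 2.66 of its counts at 5 mM and 94.1% ± 2.11 at 25 mM (SD, n = 3).

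Cfb encodes factor B, the protease of the alternative pathway (ENSMUSG00000090231, chr17:34856374-34862518, minus strand), and had the lowest log2 fold change of the 9. It was at 10.5, 15.7 and 10.9 CPM at 5 mM and at 2.20, 3.78 and 8.66 CPM at 25 mM. Every 25 mM replicate lay below every 5 mM replicate, with replicate 3 again the highest of its group. The log2 fold change was -1.34 (SE 0.48, 95% interval -2.43 to -0.25), at an unadjusted p of 0.0222 and an FDR of 0.119 (edgeR). Without 25 mM replicate 3 it was -2.05 with an FDR of 0.0476 (edgeR), in a fit where 0.946% of all genes were lower at that level. Leaving out any other single replicate gave Cfb an FDR of 0.0655 to 0.323 (edgeR). A pair of 25 mM libraries were near 0, at 0.435 CPM (replicate 1, batch 2) and 0.527 CPM (replicate 2, batch 1), against 4.02 and 5.85 CPM in their technical partners. Cfb overlaps the annotated gene Gm20547 on the same strand over 2246 exon bases, and Gm20547 stayed at or below 1.11 CPM. The estimates divided Cfb among several long transcripts without a stable pattern, as Cfb-206 held 39.4% ± 14.6 and 48.9% ± 12.04 and Cfb-201 29.1% ± 35.5 and 38.1% ± 6.28 (SD, n = 3).

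Serping1 encodes C1 inhibitor, which takes C1r and C1s out of action (ENSMUSG00000023224, chr2:84765387-84775444, minus strand). It was at 51.3, 68.0 and 55.2 CPM at 5 mM and at 41.8, 36.0 and 58.5 CPM at 25 mM. Replicate 3 of the 25 mM group lay within the 5 mM range and the other two replicates below it. The log2 fold change was -0.36 (SE 0.22, 95% interval -0.86 to 0.15) with an FDR of 0.314 (edgeR), and -0.22 without both libraries that stood apart. Its technical replicates differed by at most 1.57-fold, the narrowest range of the 9 genes, and its main transcript Serping1-201 held 99.3% ± 0.319 and 98.4% ± 1.04 of its counts (SD, n = 3).

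**Figure D3:**
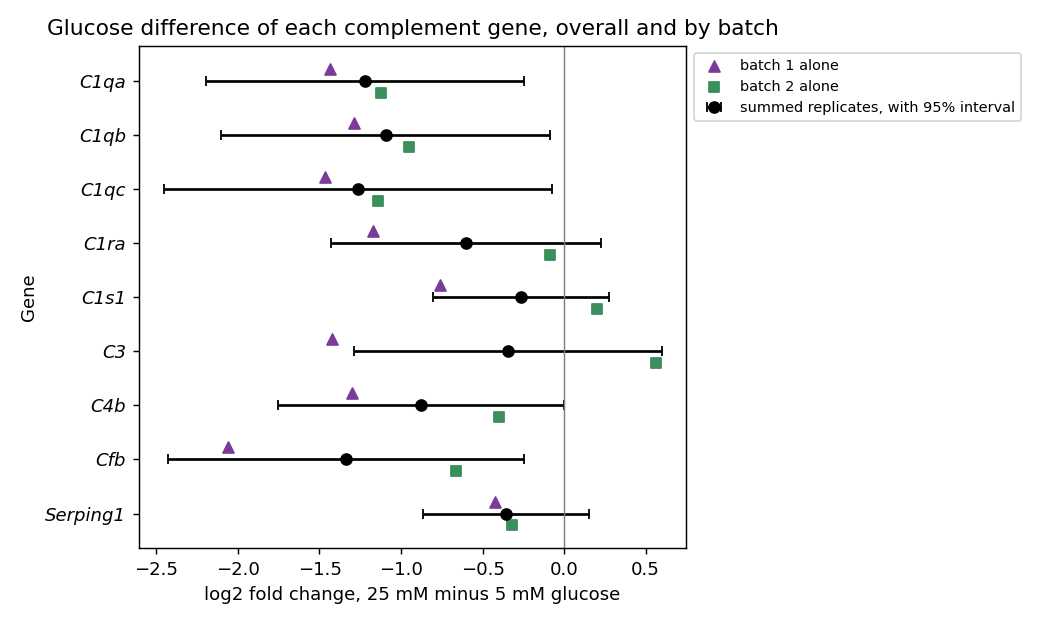
Log2 fold change of each complement gene, 25 mM minus 5 mM glucose, from summed replicates (black, bars are 95% intervals), from batch 1 alone (purple triangles) and from batch 2 alone (green squares). Every black point lies below 0, the batch 1 value is lower than the batch 2 value in all 9 genes, and C1s1 and C3 lie above 0 in batch 2.

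The difference was larger in batch 1 than in batch 2 for all 9 genes. In batch 1 the median log2 fold change of the 9 was -1.30, with 9 of 9 below 0, and -0.40 in batch 2, with 7 of 9 below 0. Serping1 differed least between batches, at -0.42 and -0.32, followed by the C1q chains, with -1.44 and -1.12 for C1qa, -1.29 and -0.95 for C1qb and -1.47 and -1.14 for C1qc. C3 went from -1.42 in batch 1 to 0.56 in batch 2, C1s1 from -0.76 to 0.20, C1ra from -1.17 to -0.087 and Cfb from -2.06 to -0.66. C4b went from -1.30 to -0.40. In batch 1 alone C1qa (FDR 0.0455) and C4b (FDR 0.0422) passed by edgeR, where 10.1% of genes were lower at that level, and 8 of the 9 were lower at an unadjusted p under 0.05, where 18.1% of genes were. In batch 2 alone 0 of the 9 passed by edgeR, where 0.0% of genes did, and 0 of the 9 were lower at an unadjusted p under 0.05, where 6.64% of genes were. A test of the difference between batches (edgeR, 18725 genes) gave 0 of the 9 and 0 genes at an FDR under 0.05. Of the 9, C1s1 alone had an unadjusted p under 0.05 for that term (0.0406, FDR 0.287), against 16.3% of all genes. The technical libraries of the same replicate differed by a median of 1.43-fold for Serping1 and C1s1 and 2.14-fold for Cfb.

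Most of the 9 genes shared an order of replicates. At 5 mM replicate 2 held the highest value for 7 of the 9 genes, and replicate 1 the lowest for 6 and the highest for 2. At 25 mM replicate 3 was highest for 8 of the 9, all but C1s1, and replicate 1 lowest for 7. Summed microglia, endothelial and fibroblast markers were also lowest in 25 mM replicate 1 and highest in replicate 3, while rod markers were highest in replicate 1. How many of all genes kept this order was not counted. Over the 12 libraries Cfb, C1ra and C3 were also alike. Their r was 0.937 for C1ra and Cfb, 0.908 for C1ra and C3 and 0.893 for C3 and Cfb. They were not set apart from the C1q chains, which Cfb followed at r of 0.829 to 0.878. C1ra followed the chains at 0.756 to 0.801 and C3 at 0.684 to 0.724. C4b followed the C1q chains at r of 0.845 to 0.880 more closely than C3 at 0.534. C1s1 resembled the C1q chains least, at r of 0.288 to 0.374. These correlations describe 12 libraries from 6 biological replicates and carry the glucose and batch differences with them.

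**Figure D4:**
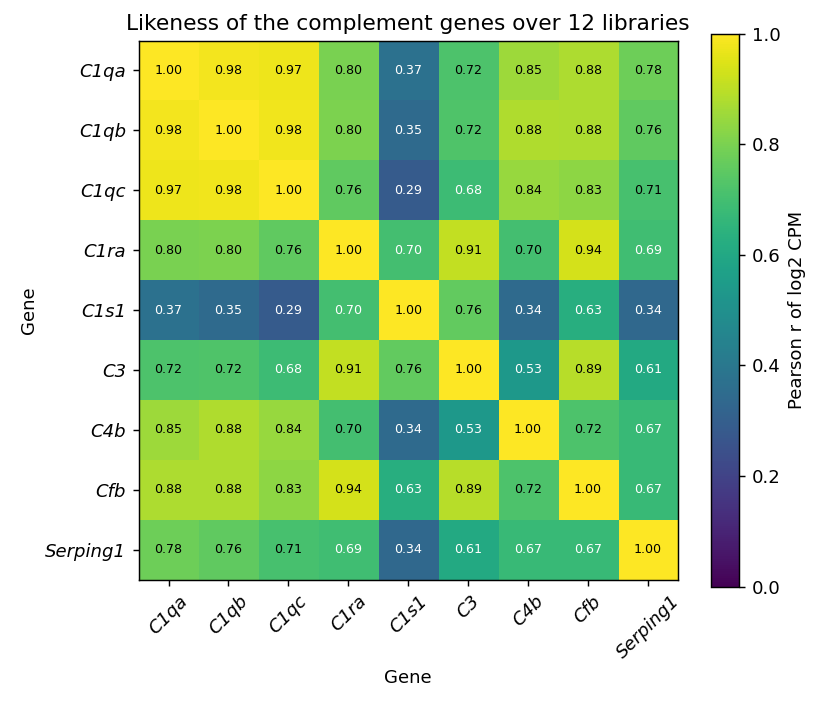
Pearson r of log2 CPM between each pair of the 9 complement genes over the 12 libraries, printed in each cell and shown by colour from 0 to 1. The C1q chains form a block at 0.975 to 0.982, and C1s1 has the lowest values, down to 0.288 with C1qc.

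Outside the 9, Cfb was most like Fabp5 (r = 0.982) and Lcn2 (0.973, an iron-binding acute phase protein), followed by Lncpint (0.972) and Clec4n (0.968). C3 was most like Arhgef3 (0.979), Hipk1 (0.970), Gclc (0.967), Nrg1 (0.966) and Glul (0.965). C1ra was nearest to Pmp22 and Ccn2 (both 0.964), Steap4 (0.956), Spp1 (0.955) and Ptgs1 (0.951). For C4b the nearest were Chrnb1 (0.945), Tmem134 (0.943), Ppm1m (0.940), Slc29a1 (0.940) and Gmip (0.937), for C1s1 Gnaq (0.929), Csnk2a2 (0.926), Spin1 (0.908), Mgat2 (0.903) and Ppp2r2a (0.903), and for Serping1 E2f1 (0.913), Sorcs2 (0.908), Ppp5c (0.905), Col1a2 (0.887) and Ebna1bp2 (0.886).

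The other genes of the cascade were compared in 5 lists. Of 11 other initiating genes, 6 were tested and 0 had an FDR under 0.05 (edgeR; 1 at an unadjusted p under 0.05 and 1 by DESeq2), with a median log2 fold change of 0.06. Masp1, a protease of the lectin pathway, had a log2 fold change of -1.17 (5.38 against 2.39 CPM, FDR 0.112), Masp2 0.31 (FDR 0.515) and the lectin Colec11 -0.50 (FDR 0.451). Mbl1 and Fcnb had 0 CPM in every replicate. Of C2, C4a, Cfd and Cfp, 3 were tested and 0 passed by edgeR at either level or by DESeq2, with 0.38 (FDR 0.402) for C2, the partner of C4 in the C3 convertase, and -0.67 (FDR 0.214) for Cfp, the stabilizer properdin. The terminal pathway, which forms the membrane pore, was barely expressed, as 2 of 7 genes were tested (C8a and C8g, means under 1 CPM, FDR 0.870 and 0.561) and Hc, which encodes C5, stood at 0.195 CPM at 5 mM.

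Among 16 other regulators 13 were tested, with a median log2 fold change of 0.03, 6 below 0 and 7 above. At an unadjusted p under 0.05 (edgeR) 4 were lower and 3 higher. By DESeq2 2 rose and 2 fell at an FDR under 0.05. By edgeR 1 rose and 0 fell at that FDR, where 1.47% of all genes rose. The gene that rose was Vtn, which encodes vitronectin, an adhesive protein that also blocks the membrane pore, at 23.9, 41.6 and 33.3 CPM against 99.2, 61.9 and 86.5 CPM. Its groups did not overlap, and its log2 fold change was 1.32 (SE 0.26, FDR 0.0475 by edgeR). It kept an FDR under 0.05 in 11 of 22 alternatives and was at 0.118 without both libraries that stood apart. Cr1l, a membrane regulator, was at 107 and 57.8 CPM (-0.89, FDR 0.103), and Clu, clusterin, at 616 and 627 CPM (0.03, FDR 0.947).

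Of 11 complement receptors 10 were tested, with a median log2 fold change of -1.06, 9 below 0, 8 lower at an unadjusted p under 0.05 and 0 at an FDR under 0.05 (edgeR; 5 lower by DESeq2). Summed CPM of the receptors was 1364 to 1607 in the 5 mM replicates, above the 496 to 1023 of the 25 mM replicates. Most of this sum came from Calr and Cd93 in every replicate, so it says little of the other receptors. C3ar1, the receptor for C3a, was at 144 ± 13.5 and 77.0 ± 35.8 CPM (SD, n = 3; log2 fold change -0.90, FDR 0.130). Cd93, once described as a C1q receptor, was at 365 and 120 CPM (-1.61, FDR 0.102), and Calr, which binds the C1q tail, at 762 and 481 CPM (-0.66, FDR 0.103).

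**Figure D5:**
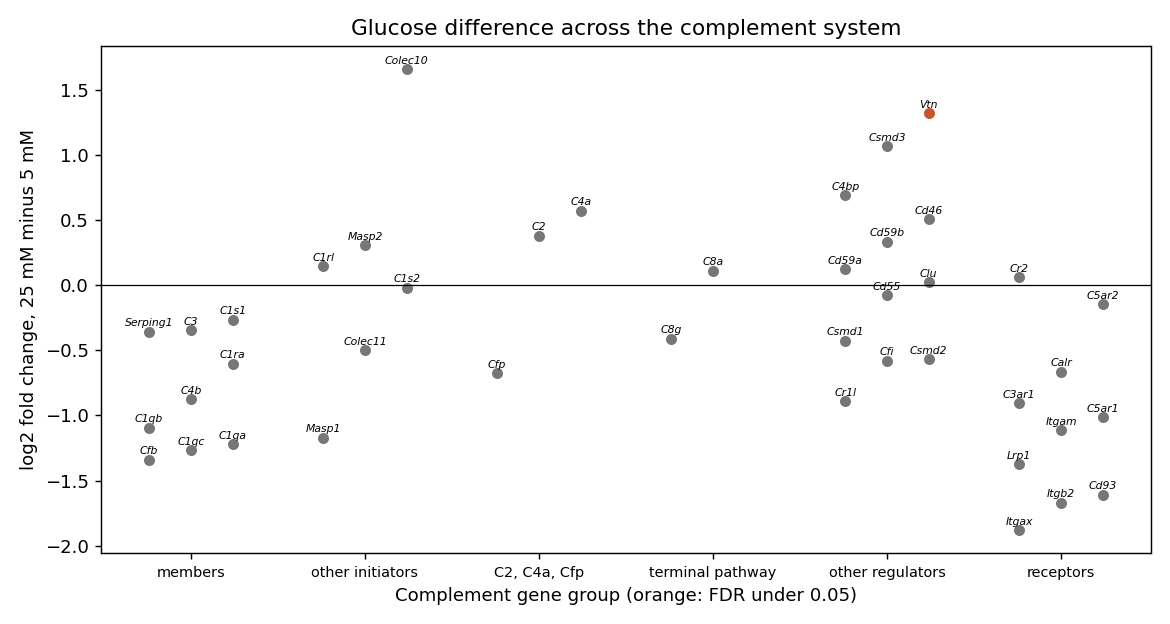
Log2 fold change (25 mM minus 5 mM glucose) of tested complement genes, by group; each dot is a gene, 1 regulator is not drawn, and orange marks an FDR under 0.05. The 9 members all lie below 0, Vtn at 1.32 is the only orange dot, and 9 of the 10 receptors lie below 0.

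Most marker lists of other non-neuronal cell types had a median below 0, as the 9 genes did, while rod markers had a median above 0. The medians were -1.54 for 10 endothelial genes (summed CPM 1283 to 2351 at 5 mM against 467 to 1052 at 25 mM), -1.52 for 9 pericyte and smooth muscle genes (422 to 552 against 250 to 427) and -1.21 for 6 fibroblast genes (199 to 222 against 37.7 to 145). Perivascular macrophage genes had a median of -0.85 over 7 (84.7 to 95.1 against 33.2 to 76.2), monocyte and granulocyte genes -1.02 over the 3 tested of 6 (6.18 to 10.4 against 1.99 to 4.24), Mueller glia genes -0.27 over 10 (3205 to 4307 against 2062 to 2996) and astrocyte genes -0.34 over 5 (381 to 600 against 414 to 471). Within the Mueller glia list 7 genes were below 0 and 3 above. In the pericyte and smooth muscle list 8 were below 0 and 1 above. The latter was Rgs5, the highest of that list, with a log2 fold change of 0.09 (273 and 292 CPM). All 10 endothelial genes were below 0, though Kdr only at -0.03 (220 and 215 CPM). Of the non-neuronal markers only Col3a1, a fibroblast collagen, passed an FDR of 0.05 (log2 fold change -2.36, FDR 0.0326 by edgeR, and 0.0594 without both libraries that stood apart). By DESeq2 8 endothelial, 8 pericyte, 3 fibroblast, 1 perivascular macrophage, 1 monocyte, 1 Mueller glia and 1 astrocyte gene were lower at an FDR under 0.05. The 10 rod genes had a median of 1.09, and 5 of them rose at an FDR under 0.05 (Pde6a, Pde6b, Cnga1, Nrl and Nr2e3, named after their values were seen). Without both libraries that stood apart the FDRs of these 5 rod genes were 0.0571 to 0.0817 (edgeR). The pigment epithelium list had a median of -0.32 over 5 genes tested. The part of these other cell types in the lower complement levels was not tested.

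Complement genes are known targets of interferon, NF-kB and STAT3 signalling. Of 20 interferon response genes 5 rose at an FDR under 0.05 (among them Ifit3, Irf7, Irf9 and Stat2, the last 3 named after their values were seen) and 0 fell (edgeR; by DESeq2 7 rose and 1 fell), with 12 above 0, 8 below 0, of which 2 were lower at an unadjusted p under 0.05, a median of 0.48 and a summed CPM of 978 to 1157 at 5 mM against 1616 to 2002 at 25 mM. Ifit3 was at 186 and 440 CPM (log2 fold change 1.24, FDR 0.0456). The relation of these lists to the complement genes was not tested. Without both libraries that stood apart the FDRs of these 4 named genes were 0.0571 to 0.173 (edgeR). Of 12 NF-kB response genes 11 were below 0 with a median of -0.78, among them Cxcl1 at -0.80 (FDR 0.301), 5 lower at an unadjusted p under 0.05 and 0 at an FDR under 0.05 (edgeR; 3 by DESeq2). Of 9 STAT3 and acute phase genes 9 were below 0 with a median of -0.52, among them Lcn2 at -0.87 (FDR 0.198), 3 lower at an unadjusted p under 0.05 and 0 at an FDR under 0.05 (edgeR; 1 by DESeq2).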

How the data were processed

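The authors made stranded total RNA libraries for low inputs (SMARTer kit) and sequenced them as read pairs of 101 bases. They deposited estimated counts (expected counts) per gene and per transcript, not normalized, with technical replicates apart. The submitters' notes name the build GRCm38, and the counting tool is not given in the sources used here. Genes with 1 transcript differed between the gene and transcript tables by a median factor of 0.979 to 1.01 per library. The sources used here do not say if the counting was strand-aware. The GENCODE M21 annotation gave symbols for 48766 of 53707 identifiers (90.8%), lengths and positions, and RefSeq gave promoters.

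Technical replicates were summed and rounded. Counts were filtered with filterByExpr, normalized by TMM and tested in edgeR 4.0.16 with its version 3 quasi-likelihood method (R 4.3.3), 3 against 3 replicates without a block, with Benjamini-Hochberg adjustment over 21061 genes. The edgeR test, FDR under 0.01 and fold change over 2 follow the study, and FDR under 0.05 is looser. Log2 CPM used a prior count of 2. TPM came from the transcript table and annotated lengths, averaged over technical replicates. Alternatives used DESeq2 1.42.0, limma 3.58.1 and Python 3.11.15 (scipy 1.17.1, biopython 1.88). The procedure was tested on simulated data of this comparison with 21061 genes. It recovered 97 of 100 genes changed 4-fold, 98.0% of those that passed the count filter, and 100% of those changed 8-fold. Smaller changes were not simulated. Every simulated gene had the same spread between replicates, without batches or outlying libraries, and low counts were left out of the changed genes. These shares therefore do not give the power for real genes that vary more.

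The members and lists were chosen with earlier results of these data known, and the letters of the PU.1, ISRE and kappaB motifs were settled after a first look at the promoters. Named genes were the members, their near copies, other complement genes under an FDR of 0.05, genes of highest mean CPM in a list (up to 3), and the 5 most like each pattern among 12499 genes of at least 5 CPM. The labels do not say what a technical replicate was, or that biological replicates came from separate animals, so p-values measure the spread between these samples. Totals limit counting error only. Only the glucose RNA libraries were used, and the CUT&Tag and 2-DG samples are not analysed here. The results of some genes are left out of the text.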

Additional observations from a re-analysis of the deposited data

Results flagged for a closer look

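C4b at 25 mM glucose stood at 19.2 CPM in the second technical replicate of replicate 3, while the 6 libraries of that concentration had a median of 6.46 CPM and a lowest value of 5.89 CPM. Its gap to the next library was 0.70 of the whole range, above the critical value of 0.625 for 6 libraries. Over the 18 groups examined (9 genes at 2 concentrations) chance gives about 0.9 such libraries.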

How the results depend on the processing

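Over 22 alternatives the median log2 fold change of the 9 genes stayed below 0, from -1.30 (batch 1 alone) to -0.40 (batch 2 alone), and 0 genes passed an FDR under 0.01 with a fold change over 2 in each. The count at an FDR under 0.05 was 0 in 17 alternatives, 2 with DESeq2, 1 with 12 libraries as separate samples (C1qa, FDR 0.0485) and 2 in batch 1 alone, and 0 to 4 when a replicate was left out, with 4 without 5 mM replicate 1 and 1 without 25 mM replicate 3. The cause was not tested. In batch 2 alone C1s1 had 0.20 and C3 0.56, and C3 ranged from -0.76 to 0.043 (without 25 mM replicate 1) when a replicate was left out. The difference in the C1q to microglia log2 ratio was 0.13 in batch 1 alone and ranged from -0.46 to 0.052 when a replicate was left out, with 0.052 without 5 mM replicate 2 and 0.033 without 25 mM replicate 2.

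The labels do not say if samples of the same replicate number were paired. The correlations of same-numbered deviations were -0.014, -0.45 and 0.28, and 3 replicates per group are too few to settle it. With a replicate block the median was -0.86 and 0 of the 9 genes passed, where 990 of all genes did against 417 without it. Leaving out both libraries that stood apart was an alternative added after seeing the data. Counts over all libraries were 1756 (C1ra) to 14146 (Serping1) per gene. These totals do not give the counting error of a single replicate, which was not compared with the spread between replicates.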
